A study of Mus musculus with 11 samples.

Results

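The genes of the transforming growth factor-β (TGF-β) and bone morphogenetic protein (BMP) pathways were followed through RNA-seq of mouse oviduct and ovarian surface epithelium (OSE), the organoids grown from them, and tumors. The members were chosen by gene symbol, and include *Tgfb1* to *Tgfb3*, *Tgfbr1* to *Tgfbr3*, all *Bmp*, *Bmpr*, *Acvr* and *Smad* symbols, *Id1* to *Id4*, *Inhba*, *Inhbb*, *Grem1*, *Nog*, *Fst*, *Bambi*, *Bmper* and *Eng*. The table of counts held 46 such genes among 18305. The symbol alone admitted *Bmp1*, a secreted metalloproteinase that is not a ligand of the family.

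RNA of 27 libraries was measured. Oviduct tissue (3 libraries), OSE tissue (3), oviductal organoids (3) and OSE organoids (2) came from wild-type C57BL/6 female mice, and a further OSE organoid line was left out by the authors as contaminated. Cas9-GFP oviductal organoids (3) came from mice that carry a Cas9 and EGFP transgene in the Rosa26 locus. TBP clones (3) were clonal oviductal organoid lines made from such Cas9-GFP organoids by CRISPR editing of genes that include *Trp53* and *Brca1*, and were selected with the MDM2 inhibitor Nutlin-3a. The series calls them independent, but the study's methods describe 2 clones per combination of edits, so that it is not stated whether the 3 libraries are 3 distinct clones. TBP tumors (6) grew from TBP clones under the skin of immunodeficient mice, so that their RNA also holds that of host cells. Tumor-derived organoids (4) were grown in Nutlin-3a from tumors with a mixed epithelial and mesenchymal-like appearance (T1-mes and T3-mes) or a glandular epithelial one (T2-epi and T4-epi). By the study's account all 4 lines came from 1 original TBP clone. T1-mes and T2-epi came from adjacent tumors, shown as the left and right side of a mouse. Every organoid medium contained Noggin, a BMP antagonist, and A83-01, an inhibitor of the type I receptors for TGF-β and activin, neither of which was given to the tissues or tumors. RNA of tissues and tumors was extracted with Trizol and RNA of organoids with a column kit, so that culture, medium and extraction cannot be told apart.

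Ligands of this family bind pairs of type II and type I receptor kinases, which phosphorylate Smad proteins. TGF-β and activin act mainly through Smad2 and Smad3, BMPs through Smad1, Smad5 and Smad9, and Smad4 is shared by both branches. Smad6 and Smad7 inhibit the pathway, while Noggin and follistatin trap ligands outside the cell. *Id* genes, which encode inhibitors of basic helix-loop-helix transcription factors, are well-known early targets of BMP signalling. In the ovary, activin and BMP15 are classical products of granulosa cells and oocytes.

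Short motifs bound by Smad proteins are shown for *Id2* and *Id3*, because *Id3* was called lower in both kinds of organoid than in tissue and *Id2* in neither. They were read from RefSeq promoter windows of the build GRCm38.p6, which cover the 250 bases before the start of each gene, and each is printed with its flanks as 30 bases, 5′ to 3′ on the strand of the gene. Capitals mark GGCGCC, a motif bound by BMP Smads, and CAGAC or its reverse complement GTCTG, the Smad binding element with a flanking base. No searched motif overlapped another in these windows.
Id2, chr12:25096306-25096335, minus strand: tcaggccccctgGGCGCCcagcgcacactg
Id3, chr4:136143643-136143672, plus strand: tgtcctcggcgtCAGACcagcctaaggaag
Id3, chr4:136143742-136143771, plus strand: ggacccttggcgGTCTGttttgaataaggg
The *Id2* window held 1 GGCGCC and 0 CAGAC or GTCTG, and the *Id3* window 0 and 2. The *Id4* window held 1 and 0 as well, and *Id4* was called lower in oviductal organoids. Its site is not printed because the sequence after the window start site was not found in a transcript of the gene. *Id1* had no window. By GENCODE annotation, the *Id2* site lies within an intron of 1 longer transcript, and both *Id3* sites lie within the 5′ UTR of a transcript that starts further upstream. Among 32851 promoter windows of this length, 9.59% held GGCGCC and 42.2% held CAGAC or GTCTG, so that these are matches of letters only. Of the 46 genes, 31 had an entry in this set of windows.

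TBP clone 1 had the fewest counts, 82239, and TBP clone 3 the most, 4531767. Levels are given as CPM, counts per 1e6 counts of the library scaled by TMM factors, and 3 counts equalled 34.1 CPM in TBP clone 1 but at most 5.21 CPM in any other library, so that a 0 in TBP clone 1 is of little weight. Each group came from a sample record of its own, apart from the tumors (3 records of 2) and the tumor-derived organoids, so that record and group cannot be told apart. *Trp53* stood at 34.8 to 61.1 CPM in Cas9-GFP organoids, at 0 to 4.91 in TBP clones, at 8.07 to 8.96 in mes and 4.27 to 5.56 in epi organoids and at 18.2 to 56.7 in TBP tumors. Summed over fixed marker lists, oviduct tissue held 5179 to 6019 CPM of 6 smooth muscle and 3391 to 5892 CPM of 8 fibroblast markers. OSE tissue held 3652 to 4423 CPM of 6 granulosa markers, 6245 to 7623 of 5 steroidogenic markers and 491 to 711 of 8 oocyte markers, against 400.2 to 561 CPM of 4 mesothelial markers, so that RNA of other ovarian cells was present. The granulosa list includes *Inha* of the wider TGF-β family (mean 3560 CPM in OSE tissue), and the oocyte list *Gdf9* (155 CPM). The mesothelial list did not set OSE tissue apart, with 289 to 467 CPM in oviduct tissue and 365 to 635 CPM in Cas9-GFP organoids. TBP tumors held 9261 to 57535 CPM of fibroblast, 89.0 to 246 of 9 endothelial and 367 to 936 of 6 myeloid markers. The myeloid sums overlapped those of organoids, which reached 421 CPM in a TBP clone and 419.9 CPM in a Cas9-GFP library, although *Lyz2* and *Itgam* of that list had no count in any organoid library. Markers of oviduct epithelium (5 genes) summed to 75800 to 120447 CPM in oviduct tissue, 17321 to 24600 in oviductal organoids, 1651 to 1937 in Cas9-GFP organoids, 1465 to 1699 in TBP clones, 128 to 1265 in mes and 1461 to 1704 in epi organoids and 71.5 to 1235 in TBP tumors. The same list summed to 303 to 378 CPM in OSE tissue. OSE organoids held 2258 to 6083 CPM of it, above every Cas9-GFP organoid library. The list is *Ovgp1*, *Pax8*, *Foxj1*, *Epcam* and *Krt8*. The study stained OSE organoids positive for its epithelial marker CK8 and for PAX8, and found no ciliated cells in them. In culture the list is therefore not specific to oviduct. Of the fibroblast markers, 4 were at 0 in all TBP clones and 7 in all Cas9-GFP organoids, while mes organoids held 2614 to 6245 CPM and epi organoids 25.9 to 84.9. The part of these cells in the pathway values was not tested, and in bulk RNA fewer cells of a type and less RNA per cell cannot be told apart.

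**Figure D1:**
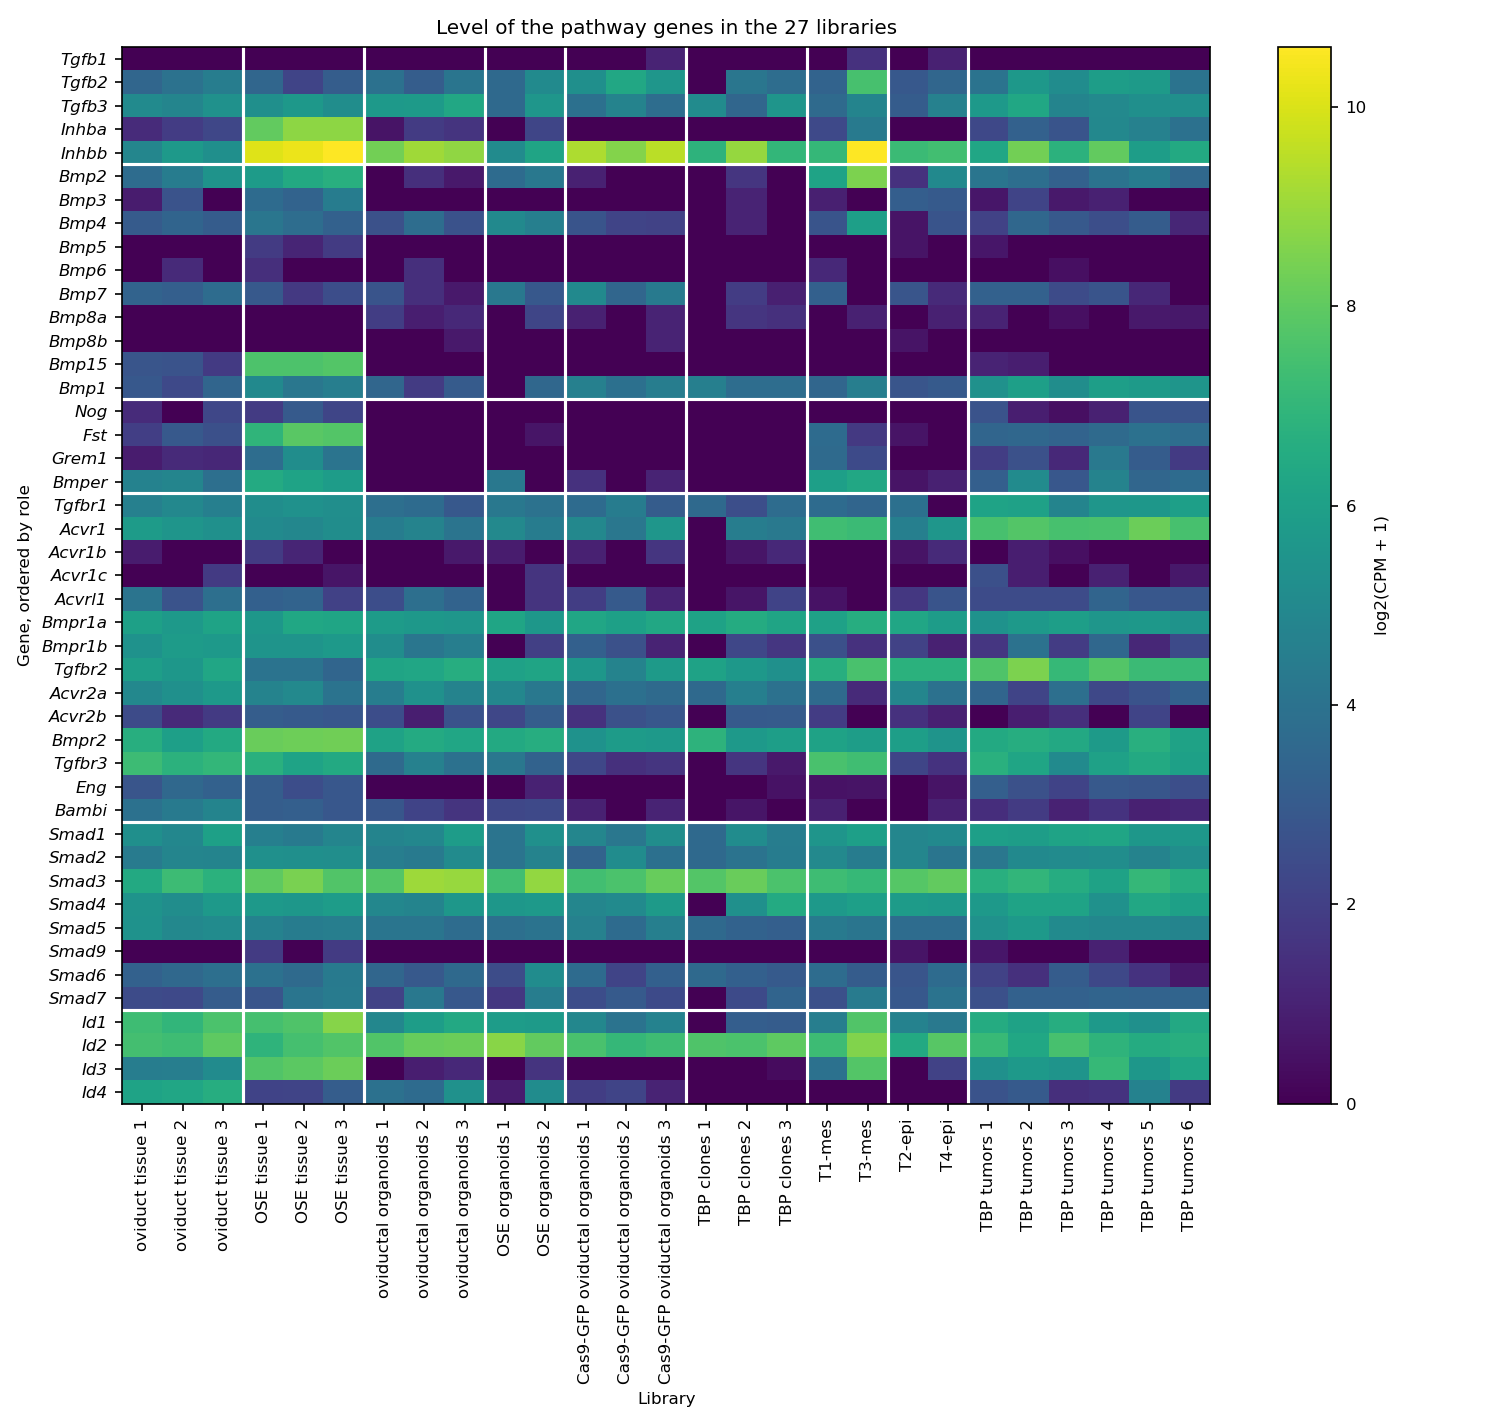
Level of the pathway genes (rows, ordered by role) in each of the 27 libraries (columns) as log2(CPM + 1), with white lines between roles and groups. *Inhba*, *Bmp15*, *Fst* and *Id3* are brightest in the OSE tissue columns, and *Fst* and *Grem1* are dark in the wild-type and clone organoids.

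Of the 46 genes, 33 differed in at least 1 of 10 comparisons, 4 were tested without a call (*Acvrl1*, *Acvr2b*, *Smad4* and *Smad7*) and 9 had too few counts to be tested in any (*Tgfb1*, *Bmp5*, *Bmp6*, *Bmp8a*, *Bmp8b*, *Nog*, *Acvr1b*, *Acvr1c* and *Smad9*). Among the TGF-β and activin ligands, *Tgfb1* had counts in 3 of 27 libraries, with 7 counts in all and 1.89 CPM in T3-mes as its highest value. Whether its RNA was scarce or poorly captured by the method, which tags 3′ ends, was not tested. *Tgfb2* ranged over 10.2 to 21.3 CPM in oviduct tissue, 3.52 to 10.2 in OSE tissue, 7.72 to 16.6 in oviductal organoids, 11.3 to 32.2 in OSE organoids, 37.7 to 79.9 in Cas9-GFP organoids, 0 to 17.1 in TBP clones, 9.42 to 182 in mes organoids, 6.48 to 10.4 in epi organoids and 15.2 to 57.9 in TBP tumors. Its level in T3-mes stood apart from that in T1-mes. *Tgfb3* ranged over 27.4 to 40.1 CPM in oviduct tissue, 35.5 to 49.3 in OSE tissue, 51.9 to 80.3 in oviductal organoids, 11.3 to 46 in OSE organoids, 12.9 to 26.1 in Cas9-GFP organoids, 10.2 to 44.9 in TBP clones, 11.7 to 26.4 in mes organoids, 7.41 to 24.2 in epi organoids and 26.6 to 78.1 in TBP tumors. It was the TGF-β ligand with counts in all 27 libraries. *Inhba*, for the activin βA chain, ranged over 1.46 to 3.76 CPM in oviduct tissue, 264 to 447 in OSE tissue, 0.472 to 2.57 in oviductal organoids, 0 to 3.58 in OSE organoids, 0 in Cas9-GFP organoids, 0 in TBP clones, 4.04 to 19.3 in mes organoids, 0 in epi organoids and 3.86 to 29.9 in TBP tumors. The other activin chain gene, *Inhbb*, ranged over 27.8 to 50.7 CPM in oviduct tissue, 1078 to 1549 in OSE tissue, 327 to 549 in oviductal organoids, 33.2 to 72.1 in OSE organoids, 398 to 725 in Cas9-GFP organoids, 114 to 479 in TBP clones, 134 to 1512 in mes organoids, 148 to 166 in epi organoids and 58.0 to 320.2 in TBP tumors. In contrast to *Inhba*, it was never at 0.

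Among the BMP ligands, *Bmp2* ranged over 12.4 to 42.6 CPM in oviduct tissue, 55.4 to 101 in OSE tissue, 0 to 1.71 in oviductal organoids, 12.1 to 17.9 in OSE organoids, 0 to 0.942 in Cas9-GFP organoids, 0 to 2.14 in TBP clones, 69.1 to 362 in mes organoids, 1.85 to 31.8 in epi organoids and 8.76 to 21.0 in TBP tumors. The 3 oviductal organoid libraries held 3 counts of it in all. *Bmp4* ranged over 7.31 to 9.60 CPM in oviduct tissue, 8.88 to 17.0 in OSE tissue, 5.19 to 12.9 in oviductal organoids, 23.0 to 31.7 in OSE organoids, 3.21 to 5.65 in Cas9-GFP organoids, 0 to 1.07 in TBP clones, 5.83 to 62.7 in mes organoids, 0.463 to 5.69 in epi organoids and 1.22 to 10.5 in TBP tumors, with its highest value in T3-mes. *Bmp7* ranged over 8.22 to 12.5 CPM in oviduct tissue, 2.35 to 6.81 in OSE tissue, 0.664 to 5.66 in oviductal organoids, 6.65 to 18.1 in OSE organoids, 10.4 to 32 in Cas9-GFP organoids, 0 to 2.68 in TBP clones, 0 to 8.52 in mes organoids, 1.42 to 6.02 in epi organoids and 0 to 8.82 in TBP tumors, and was highest in a Cas9-GFP library. *Bmp6* and *Bmp8b* never exceeded 3 counts in a library.

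Genes for 3 secreted antagonists were at 0 or under 1 CPM in all organoids but the mes organoids. *Nog*, for Noggin, ranged over 0 to 3.76 CPM in oviduct tissue, 2.55 to 7.04 in OSE tissue, 0 in oviductal organoids, 0 in OSE organoids, 0 in Cas9-GFP organoids, 0 in TBP clones, 0 in mes organoids, 0 in epi organoids and 0.337 to 5.80 in TBP tumors. *Fst*, for the activin-binding follistatin, ranged over 2.92 to 6.85 CPM in oviduct tissue, 122 to 236 in OSE tissue, 0 in oviductal organoids, 0 to 0.511 in OSE organoids, 0 in Cas9-GFP organoids, 0 in TBP clones, 2.36 to 12.1 in mes organoids, 0 to 0.463 in epi organoids and 9.43 to 14.5 in TBP tumors. *Grem1* ranged over 0.731 to 1.37 CPM in oviduct tissue, 12.8 to 35.2 in OSE tissue, 0 in oviductal organoids, 0 in OSE organoids, 0 in Cas9-GFP organoids, 0 in TBP clones, 4.24 to 11.7 in mes organoids, 0 in epi organoids and 1.35 to 18.3 in TBP tumors. None of these 3 genes had a count in oviductal, Cas9-GFP or TBP clone organoids, although 3 counts over a group there equalled 0.466 to 1.17 CPM. Of the coreceptors, *Bambi*, which encodes a receptor without a kinase, ranged over 14.6 to 26.3 CPM in oviduct tissue, 6.27 to 8.21 in OSE tissue, 1.99 to 6.13 in oviductal organoids, 3.77 to 4.09 in OSE organoids, 0 to 1.07 in Cas9-GFP organoids, 0 to 0.535 in TBP clones, 0 to 0.897 in mes organoids, 0 to 0.949 in epi organoids and 0.967 to 2.63 in TBP tumors. *Eng*, for endoglin, a coreceptor best known in endothelium, ranged over 5.85 to 11.0 CPM in oviduct tissue, 4.69 to 7.66 in OSE tissue, 0 in oviductal organoids, 0 to 1.02 in OSE organoids, 0 in Cas9-GFP organoids, 0 to 0.447 in TBP clones, 0.448 to 0.471 in mes organoids, 0 to 0.475 in epi organoids and 3.37 to 8.26 in TBP tumors. Both were lower in every organoid library than in every oviduct tissue library.

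The inhibitory Smads were read at low levels. *Smad6* ranged over 8.77 to 13.8 CPM in oviduct tissue, 11.7 to 19.3 in OSE tissue, 6.86 to 11.3 in oviductal organoids, 4.53 to 34.8 in OSE organoids, 3.48 to 12.2 in Cas9-GFP organoids, 6.92 to 11.4 in TBP clones, 7.54 to 12.6 in mes organoids, 6.02 to 11.9 in epi organoids and 0.609 to 7.41 in TBP tumors. *Smad7* ranged over 4.11 to 7.52 CPM in oviduct tissue, 5.96 to 20.4 in OSE tissue, 3.30 to 18.0 in oviductal organoids, 2.26 to 21.5 in OSE organoids, 4.28 to 6.95 in Cas9-GFP organoids, 0 to 9.82 in TBP clones, 4.93 to 20.3 in mes organoids, 6.48 to 15.2 in epi organoids and 4.96 to 9.75 in TBP tumors. OSE organoid 2 gave the highest value of both, at 34.8 and 21.5 CPM, against 4.53 and 2.26 CPM in OSE organoid 1. Among the *Id* genes, *Id1* ranged over 126 to 192 CPM in oviduct tissue, 175 to 403 in OSE tissue, 28.8 to 83.0 in oviductal organoids, 53.2 to 57.4 in OSE organoids, 15.6 to 29.2 in Cas9-GFP organoids, 0 to 8.03 in TBP clones, 22 to 209 in mes organoids, 18.5 to 25.0 in epi organoids and 38.7 to 97.0 in TBP tumors. *Id2* ranged over 159 to 247 CPM in oviduct tissue, 118 to 213 in OSE tissue, 208 to 295 in oviductal organoids, 262 to 416 in OSE organoids, 132 to 185 in Cas9-GFP organoids, 194 to 251 in TBP clones, 152 to 383 in mes organoids, 85.2 to 229 in epi organoids and 79.0 to 181 in TBP tumors. It was at 79.0 CPM or more in every library. *Id3* ranged over 21.2 to 33.8 CPM in oviduct tissue, 209 to 296 in OSE tissue, 0 to 1.33 in oviductal organoids, 0 to 2.05 in OSE organoids, 0 in Cas9-GFP organoids, 0 to 0.223 in TBP clones, 14.4 to 217 in mes organoids, 0 to 3.32 in epi organoids and 39.1 to 137 in TBP tumors. Wild-type and Cas9-GFP organoids and TBP clones held at most 2.05 CPM of it.

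Oviduct was first compared with OSE tissue, the tissues from which the organoids were derived. OSE tissue had higher activin chains, secreted antagonists and *Id3*, and oviduct tissue had higher *Id4* and *Tgfbr2*. Of 30 genes tested, 7 were higher and 14 lower in oviduct tissue, where 51.3% of all genes tested were called in either direction (27% higher and 24.3% lower). The median log2 fold change was -0.57 over the genes tested here and 0.00 over all genes. *Inhbb* was at 27.8, 50.7 and 37.6 CPM in oviduct and 1078, 1263 and 1549 CPM in OSE tissue (log2 fold change -5.12 ± 0.24 (SE), edgeR adjusted p = 8.41e-11). *Inhba* was at 1.46, 2.74 and 3.76 CPM and 264, 447 and 442 CPM (log2 fold change -7.25 ± 0.35 (SE), edgeR adjusted p = 1.23e-10). Every OSE tissue library exceeded every oviduct library for both chains. *Bmp15*, an oocyte growth factor, was at 5.85, 5.48 and 2.51 CPM in oviduct and 199, 201 and 218 CPM in OSE tissue (log2 fold change -5.40 ± 0.25 (SE), edgeR adjusted p = 9.12e-11). The oocyte ligand *Gdf9* of the wider family was lower in oviduct too (log2 fold change -5.94, edgeR adjusted p = 3.38e-10), as were the inhibin chain *Inha* (log2 fold change -6.29, edgeR adjusted p = 1.12e-07) and the receptor *Amhr2* (log2 fold change -5.56, edgeR adjusted p = 2.15e-10). All 6 granulosa, 5 steroidogenic and 7 tested oocyte markers were higher in OSE tissue. The granulosa list includes *Inha* and the oocyte list *Gdf9*, so that the lists are not separate from the genes just named.

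The secreted antagonist genes *Fst*, *Grem1* and *Bmper* were higher in OSE tissue. *Fst*, for follistatin, was at 2.92, 6.85 and 5.01 CPM in oviduct and 122, 236 and 214 CPM in OSE tissue (log2 fold change -5.37 ± 0.35 (SE), edgeR adjusted p = 5.99e-09). *Grem1* had 3 counts in oviduct tissue and 75 in OSE tissue, a pooled ratio of 18.4 with a 95% counting interval of 6.05 to 91.1 (edgeR adjusted p = 5.92e-05). *Bmper*, a secreted BMP-binding protein, was at 24.8, 27.4 and 13.8 CPM and 87.7, 70.4 and 56.4 CPM (log2 fold change -1.68 ± 0.26 (SE), edgeR adjusted p = 6.03e-05). For each of these 3 genes, groups did not overlap.

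Among receptors, the type II receptors differed in opposite directions. *Bmpr2*, which binds BMPs, was at 100.1, 63.1 and 86.5 CPM in oviduct and 286, 304 and 316 CPM in OSE tissue (log2 fold change -1.85 ± 0.18 (SE), edgeR adjusted p = 2.62e-07). *Tgfbr2*, which binds TGF-β, was at 60.6, 48.0 and 76.4 CPM in oviduct and 15.3, 15.3 and 9.93 CPM in OSE tissue (log2 fold change 2.23 ± 0.27 (SE), edgeR adjusted p = 4.20e-06). *Smad3* was lower in oviduct, at 84.8, 154 and 107 CPM against 248, 353 and 213 CPM (log2 fold change -1.26 ± 0.23 (SE), edgeR adjusted p = 3.73e-04). The *Id* genes split: *Id3* was at 21.2, 21.9 and 33.8 CPM in oviduct and 209, 246 and 296 CPM in OSE tissue (log2 fold change -3.32 ± 0.22 (SE), edgeR adjusted p = 3.71e-09), and *Id4* at 69.4, 76.8 and 96.5 CPM and 3.41, 3.52 and 7.84 CPM (log2 fold change 3.84 ± 0.31 (SE), edgeR adjusted p = 3.65e-08). *Id1* and *Id2* were not called. The other calls, with their log2 fold changes, were *Bmp1* (-1.78), *Bmp2* (-1.78), *Bambi* (1.41), *Tgfbr3* (0.57), *Smad1* (0.82), *Smad2* (-0.65), *Smad5* (0.66), *Acvr2a* (0.76) and *Tgfbr1* (-0.59). Without 1 library the calls of *Tgfbr1* (0.182 without oviduct tissue 1), *Acvr2a* (0.279 without OSE tissue 3), *Tgfbr3* (0.0924 without OSE tissue 2), *Smad1* (0.149 without oviduct tissue 3), *Smad2* (0.190 without oviduct tissue 1) and *Smad5* (0.176 without oviduct tissue 1) were lost, given with the highest edgeR adjusted p. The call of *Tgfbr1* was lost in 5 of the 6 fits that left out 1 library. Those of *Acvr2a*, *Smad2* and *Smad5* were lost in 4 each, and those of *Tgfbr3* and *Smad1* in 3 each. The log2 fold change of *Bmp2* was -2.39 without oviduct tissue 3 and that of *Id4* 4.44 without OSE tissue 3.

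Pathway genes outside the 46 gave 2 and 3 of 7 other ligands and receptors, 4 and 2 of 10 other extracellular regulators, 1 and 4 of 13 intracellular regulators, 5 and 3 of 10 genes known to respond to TGF-β and 2 and 0 of 3 genes known to respond to BMP as higher and lower in oviduct tissue. *Cyr61* (-3.70 on the log2 scale) was lower there, and the contractile gene *Tagln* (3.44) and the matrix gene *Fn1* (2.68) were higher, as were all 6 smooth muscle markers.

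**Figure D2:**
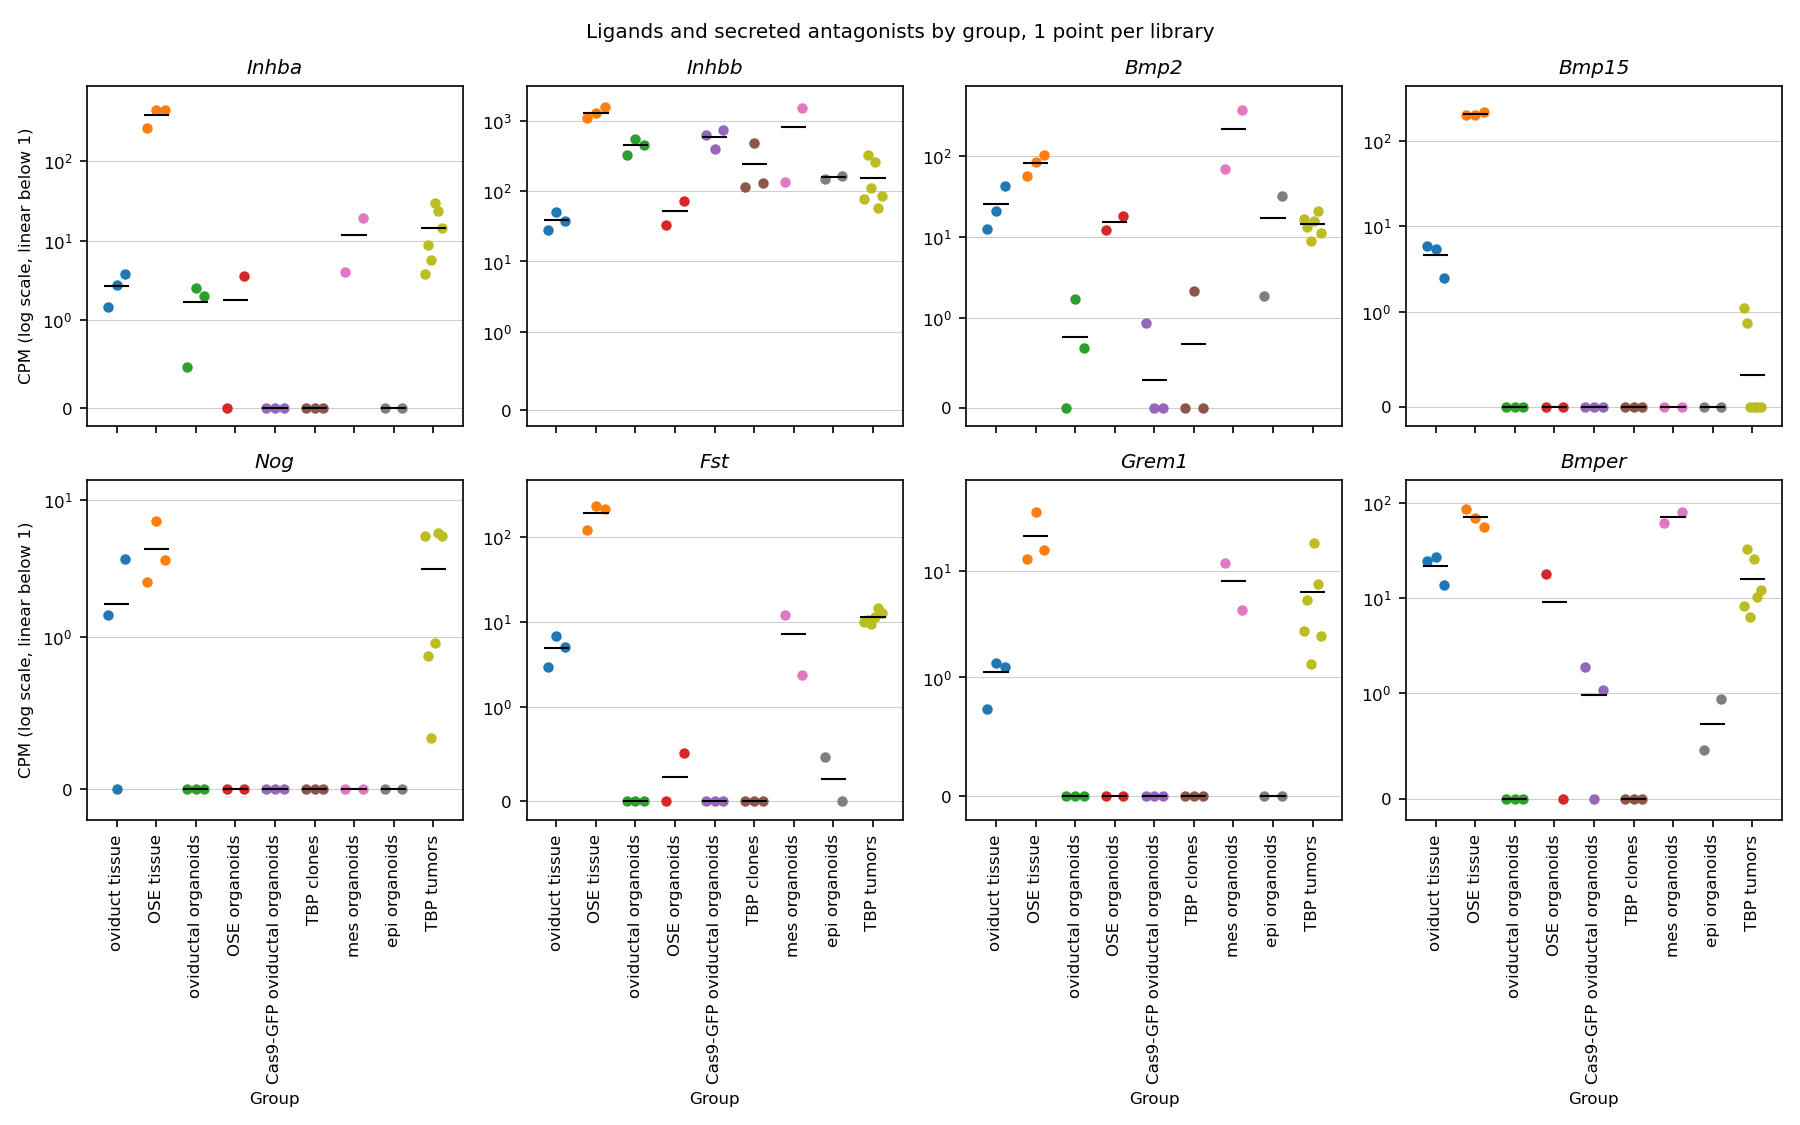
CPM of 4 ligands (top) and 4 secreted antagonists (bottom) in each group, on a log axis that is linear below 1, with 1 point per library and a bar at the group mean. OSE tissue lies highest for *Inhba*, *Bmp15*, *Fst* and *Grem1*, whereas *Nog*, *Fst* and *Grem1* sit at or near 0 in most organoids and are read in TBP tumors.

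Oviductal organoids were compared with oviduct tissue to see what changed in culture. *Id1*, *Id3* and *Id4*, *Bmp2* and several receptors were lower in the organoids, and *Inhbb* and *Smad3* were higher. Of 27 genes tested, 3 were higher and 12 lower, where 43.0% of all genes were called (18.7% higher and 24.4% lower). The median log2 fold change was -0.43 here and -0.02 over all genes, and it was the same with *Bmper* set to its bound. *Inhbb* was at 327, 549 and 457 CPM in organoids, each above the 3 tissue values (log2 fold change 3.57 ± 0.27 (SE), edgeR adjusted p = 7.44e-07). *Smad3* was at 217, 529 and 505 CPM against 84.8, 154 and 107 CPM (log2 fold change 1.89 ± 0.35 (SE), edgeR adjusted p = 0.00186). *Bmp2* had 3 counts in the organoids and 66 in tissue, a ratio of 36.4 (95% counting interval 11.9 to 181, edgeR adjusted p = 2.27e-04). *Bmper* had no count in organoids and 65 in tissue, and was at least 35.8-fold lower when 3 counts over the group are taken as the floor (edgeR adjusted p = 3.52e-05).

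Of the 4 *Id* genes, 3 were lower in the organoids. *Id3* had 3 counts in the organoids and 72 in tissue, a ratio of 39.7 (95% counting interval 13.1 to 197, edgeR adjusted p = 3.55e-05). *Id4* was at 14.6, 12 and 40.5 CPM in organoids and 69.4, 76.8 and 96.5 CPM in tissue (log2 fold change -1.83 ± 0.39 (SE), edgeR adjusted p = 0.00289). *Id1* was at 28.8, 59.2 and 83.0 CPM and 158, 126 and 192 CPM (log2 fold change -1.48 ± 0.34 (SE), edgeR adjusted p = 0.00439). No organoid library reached a tissue library for these 3 genes. *Id2*, with 208, 277 and 295 CPM against 172, 159 and 247 CPM, was not called (log2 fold change 0.44 ± 0.21 (SE), edgeR adjusted p = 0.113).

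Among receptors, *Tgfbr3*, which encodes the coreceptor betaglycan, was at 11.8, 24.0 and 14.6 CPM in organoids and 151, 112 and 127 CPM in tissue (log2 fold change -2.99 ± 0.27 (SE), edgeR adjusted p = 3.31e-06). *Bambi* was at 6.13, 3.43 and 1.99 CPM and 14.6, 19.2 and 26.3 CPM (log2 fold change -2.24 ± 0.47 (SE), edgeR adjusted p = 0.00188). The type I receptors *Acvr1*, used by BMPs, and *Tgfbr1*, used by TGF-β, were lower as well (log2 fold change -1.17 ± 0.27 (SE), edgeR adjusted p = 0.00391; log2 fold change -1.19 ± 0.35 (SE), edgeR adjusted p = 0.0149). *Smad5*, a BMP Smad, was at 16.5, 16.3 and 12.6 CPM against 41.6, 30.2 and 33.8 CPM (log2 fold change -1.22 ± 0.29 (SE), edgeR adjusted p = 0.00398). The other calls were *Tgfb3* (0.89), *Bmpr1b* (-0.92) and *Bmp7* (-1.71). Calls lost without 1 library, with the highest edgeR adjusted p, were *Tgfb3* (0.0712 without oviductal organoids 3), *Bmp7* (0.111 without oviductal organoids 3), *Tgfbr1* (0.0726 without oviduct tissue 2) and *Bmpr1b* (0.0854 without oviduct tissue 2). *Bmp7* lost its call in 5 of the 6 fits without 1 library, *Bmpr1b* in 4, *Tgfb3* in 3 and *Tgfbr1* in 2. Without oviductal organoid 1, the deepest of the 3, the ratios of *Bmp2* and *Id3* were 20.3 and 22.1 and the bound of *Bmper* was 20.0, with a log2 fold change of -3.0 for *Bmp7*. The ratio of *Bmp2* was 82.6 without oviductal organoid 2, and without oviductal organoid 3 that of *Id3* was 81.7 and the log2 fold change of *Id4* -2.55. All 7 tested fibroblast, 6 smooth muscle and 6 of 8 tested endothelial markers were lower in the organoids, as were 2 of 5 of oviduct epithelium, where 1 was higher, and their part in these differences was not tested.

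Higher and lower in the organoids were 2 and 3 of 5 other ligands and receptors, 5 and 7 of 13 other extracellular regulators, 1 and 2 of 12 intracellular regulators, 4 and 5 of 11 genes known to respond to TGF-β and 2 and 2 of 4 genes known to respond to BMP. *Ctgf* (log2 fold change 6.93, edgeR adjusted p = 8.01e-07) and *Cyr61* (log2 fold change 6.14, edgeR adjusted p = 8.80e-09), both matricellular genes that TGF-β can induce, were among the higher ones. The contractile gene *Tagln* was lower, with group means of 0.693 CPM in organoids and 1017 CPM in tissue, and the collagen *Col1a1* had no count in the organoids. Of BMP responsive genes outside the *Id* family, *Msx2* was higher (log2 fold change 3.46, edgeR adjusted p = 4.18e-05) and *Hey1* lower (log2 fold change -4.89, edgeR adjusted p = 1.18e-05), so that these did not share a direction.

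**Figure D3:**
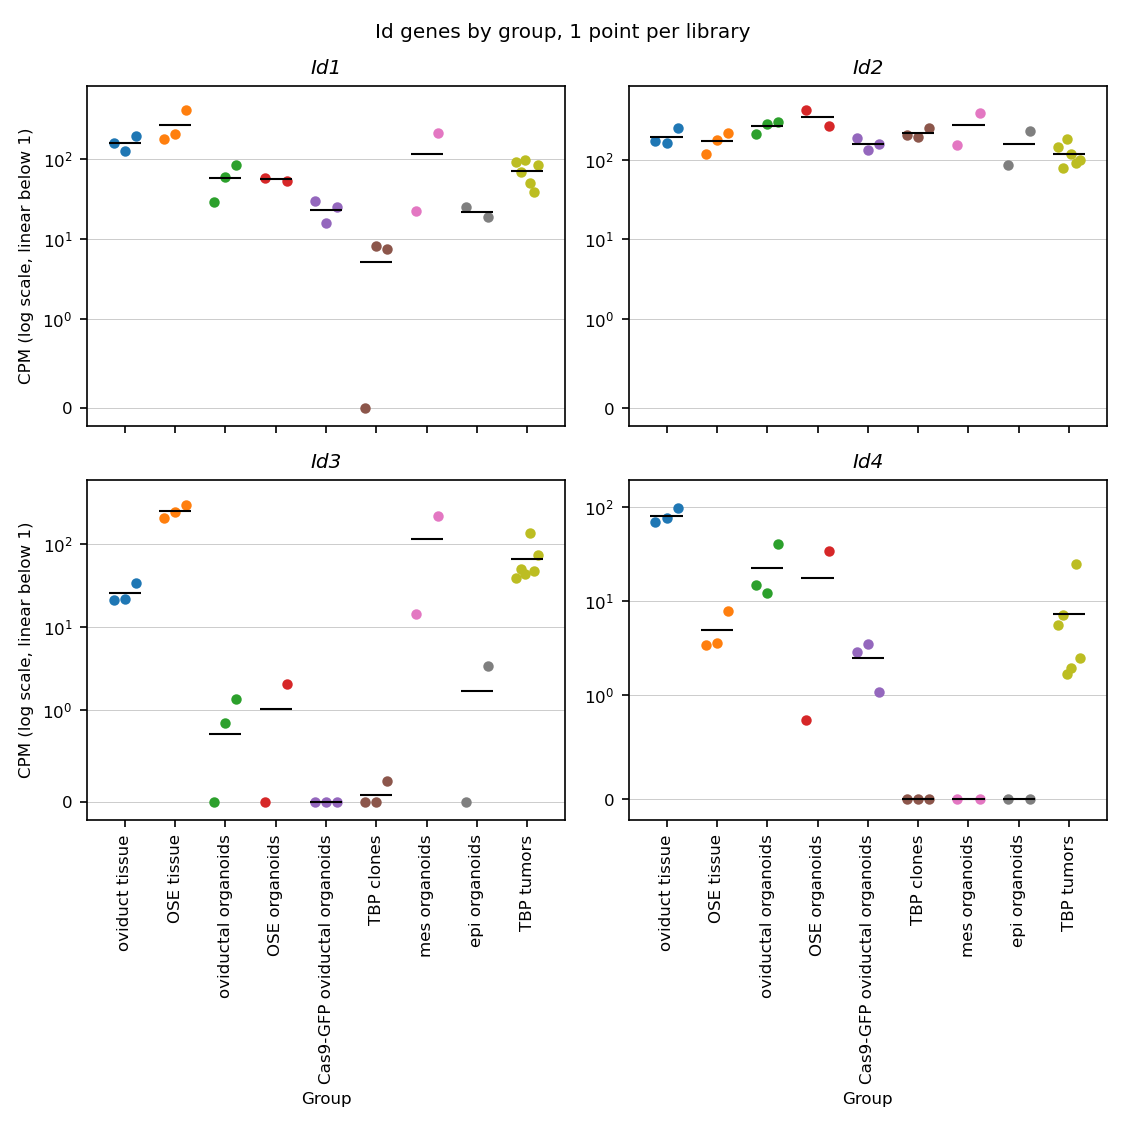
CPM of *Id1* to *Id4* in each group on a log axis that is linear below 1, with 1 point per library and a bar at the group mean. *Id2* stays between 79.0 and 416 CPM in all libraries, while *Id3* is at or near 0 in wild-type, Cas9-GFP and TBP clone organoids and at 39.1 CPM or more in TBP tumors.

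The same question was asked of OSE. Activin chains, antagonists, *Bmp15*, *Id1* and *Id3* were lower in OSE organoids than in OSE tissue, and *Tgfbr2* was higher. Of 37 genes tested, 2 were higher and 15 lower, where 33.1% of all genes were called (14.4% higher and 18.6% lower). The median log2 fold change was -0.84 here, with or without genes at 0 set to their bound, and -0.06 over all genes. The 2 OSE organoid libraries gave 33.2 and 72.1 CPM of *Inhbb*, far under tissue (log2 fold change -4.58 ± 0.45 (SE), edgeR adjusted p = 7.07e-04), and 0 and 3.58 CPM of *Inhba* (log2 fold change -7.47 ± 0.81 (SE), edgeR adjusted p = 0.00145). *Bmp15* had no count in the organoids and was at least 228-fold lower (edgeR adjusted p = 2.12e-04), *Bmp3* likewise at least 17.2-fold lower (edgeR adjusted p = 0.00470). *Bmp2* was at 12.1 and 17.9 CPM against 55.4, 84.5 and 101 CPM (log2 fold change -2.38 ± 0.38 (SE), edgeR adjusted p = 0.00403). *Fst* had 1 count in organoids and 753 in tissue, a ratio of 627 (95% counting interval 112 to 24791, edgeR adjusted p = 3.48e-04). All 6 granulosa, 5 steroidogenic, 8 fibroblast and 7 tested oocyte markers were lower in the organoids too, *Inha* and *Gdf9* among them. Of 4 tested markers of the oviduct epithelium list, which is not specific to oviduct in culture, 3 were higher in the organoids. The part of these markers was not tested.

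*Id3* was at 0 and 2.05 CPM in OSE organoids and 209, 246 and 296 CPM in tissue (log2 fold change -7.60 ± 0.64 (SE), edgeR adjusted p = 4.90e-04). *Tgfbr2* was at 66.4 and 71.6 CPM and 15.3, 15.3 and 9.93 CPM (log2 fold change 2.40 ± 0.31 (SE), edgeR adjusted p = 0.00192), which made it the receptor that was higher in culture. *Bmpr2* was at 84.5 and 95.6 CPM and 286, 304 and 316 CPM (log2 fold change -1.72 ± 0.22 (SE), edgeR adjusted p = 0.00192). *Tgfbr3* (log2 fold change -2.71 ± 0.37 (SE), edgeR adjusted p = 0.00235) and the type I BMP receptor gene *Bmpr1b* (log2 fold change -4.62 ± 0.69 (SE), edgeR adjusted p = 0.00324) were also lower. None of these overlapped between groups. The other calls were *Id1* (-2.22 on the log2 scale), *Tgfbr1* (-1.17), *Id2* (1.02, higher), *Grem1* (at least 20.8-fold lower, with no count in organoids) and *Eng* (a ratio of 10.4 with an interval of 2.59 to 90.6, lower). Calls lost without 1 library, with the highest edgeR adjusted p, were *Tgfbr1* (0.0885 without OSE tissue 2), *Eng* (0.0587 without OSE tissue 2) and *Id2* (0.154 without OSE tissue 2). The calls of *Tgfbr1* and *Id2* were lost without any 1 of the OSE tissue libraries. Without OSE organoid 1 or OSE organoid 2 more genes were called, but the lone OSE organoid library is then assumed to vary like the tissue. Without OSE organoid 1 the log2 fold change was -6.66 for *Inhba*, -3.84 for *Bmpr1b* and -6.83 for *Id3*. The ratios of *Fst* and *Eng* were then 374 and 6.20, and the bounds 136 for *Bmp15*, 10.3 for *Bmp3* and 12.4 for *Grem1*. Without OSE organoid 2, *Inhba*, *Bmpr1b*, *Id3*, *Fst* and *Eng* had no organoid count left, *Inhbb* was at -5.26 on the log2 scale, and the bounds were 92.2 for *Bmp15*, 6.95 for *Bmp3*, 8.41 for *Grem1*, 84.4 for *Fst* and 2.80 for *Eng*. Higher and lower in the organoids were 1 and 4 of 5 other ligands and receptors, 4 and 5 of 14 other extracellular regulators, 1 and 1 of 14 intracellular regulators, 4 and 5 of 12 genes known to respond to TGF-β and 1 and 0 of 4 genes known to respond to BMP, with *Tgm2* (log2 fold change 2.74, edgeR adjusted p = 0.00173) among the higher TGF-β responsive genes and *Tagln* (-5.22 on the log2 scale) among the lower.

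Oviductal and OSE organoids, which were cultured in a common medium, were then compared with each other. None of 26 genes tested was called with edgeR, where 0.0972% of all genes were. DESeq2 called 3 of the 26, with 2.49% of all genes. These were *Inhbb*, at 327, 549 and 457 CPM in oviductal and 33.2 and 72.1 CPM in OSE organoids (log2 fold change 3.08, DESeq2 adjusted p = 3.00e-08, edgeR adjusted p = 0.0727), *Bmpr1b*, at 35.9, 17.1 and 21.9 and 0 and 3.07 CPM (3.89, DESeq2 adjusted p = 0.00633, edgeR adjusted p = 0.193), and *Bmp2*, at 0, 1.71 and 0.664 and 12.1 and 17.9 CPM (a pooled ratio of 24.8 with a 95% counting interval of 8.03 to 124, DESeq2 adjusted p = 0.0274, edgeR adjusted p = 0.193). The groups did not overlap for any of the 3. The OSE organoid libraries differed from each other, with *Id4* at 0.755 and 34.3 CPM and *Bmper* at 18.1 and 0 CPM. Calls by edgeR arose where either of these libraries was left out. The ratio of *Bmp2* was 13.9 without oviductal organoid 1 and 56.4 without oviductal organoid 2. *Id1* was at 28.8, 59.2 and 83.0 CPM in oviductal and 57.4 and 53.2 CPM in OSE organoids and *Id3* at 0, 0.857 and 1.33 and 0 and 2.05 CPM.

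An interaction term tested whether the difference between oviduct and OSE was the same in organoids as in tissue. It was called for 5 of 37 genes, 4 higher and 1 lower, where 11.4% of all genes were called (5.0% higher and 6.44% lower). *Inhbb* changed sides, lower in oviduct than OSE tissue (-5.12 on the log2 scale) and higher in oviductal than OSE organoids (3.08), with a difference of 8.24 ± 0.54 (SE, edgeR adjusted p = 3.82e-06). For *Inhba* the difference was 6.87 ± 1.25 (edgeR adjusted p = 0.00444), with at most 3.58 CPM left in any of these organoids. *Bmpr2*, lower in oviduct tissue (-1.85), differed little between the organoids (-0.22), a difference of 1.71 ± 0.30 (edgeR adjusted p = 0.00350). *Bmpr1b* was not called between the tissues (40.9, 54.8 and 52.6 and 44.3, 43.4 and 50.7 CPM) and had a difference of 3.77 ± 0.71 (edgeR adjusted p = 0.00473). *Tgfbr2* went the other way, with -1.89 ± 0.38 (edgeR adjusted p = 0.00677). All 5 were called without each library in turn. The difference was 6.10 for *Inhba* and 3.03 for *Bmpr1b* without OSE organoid 1. Without OSE organoid 2, both had no count in the OSE organoid left, and *Inhbb* differed by 8.95.

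**Figure D4:**
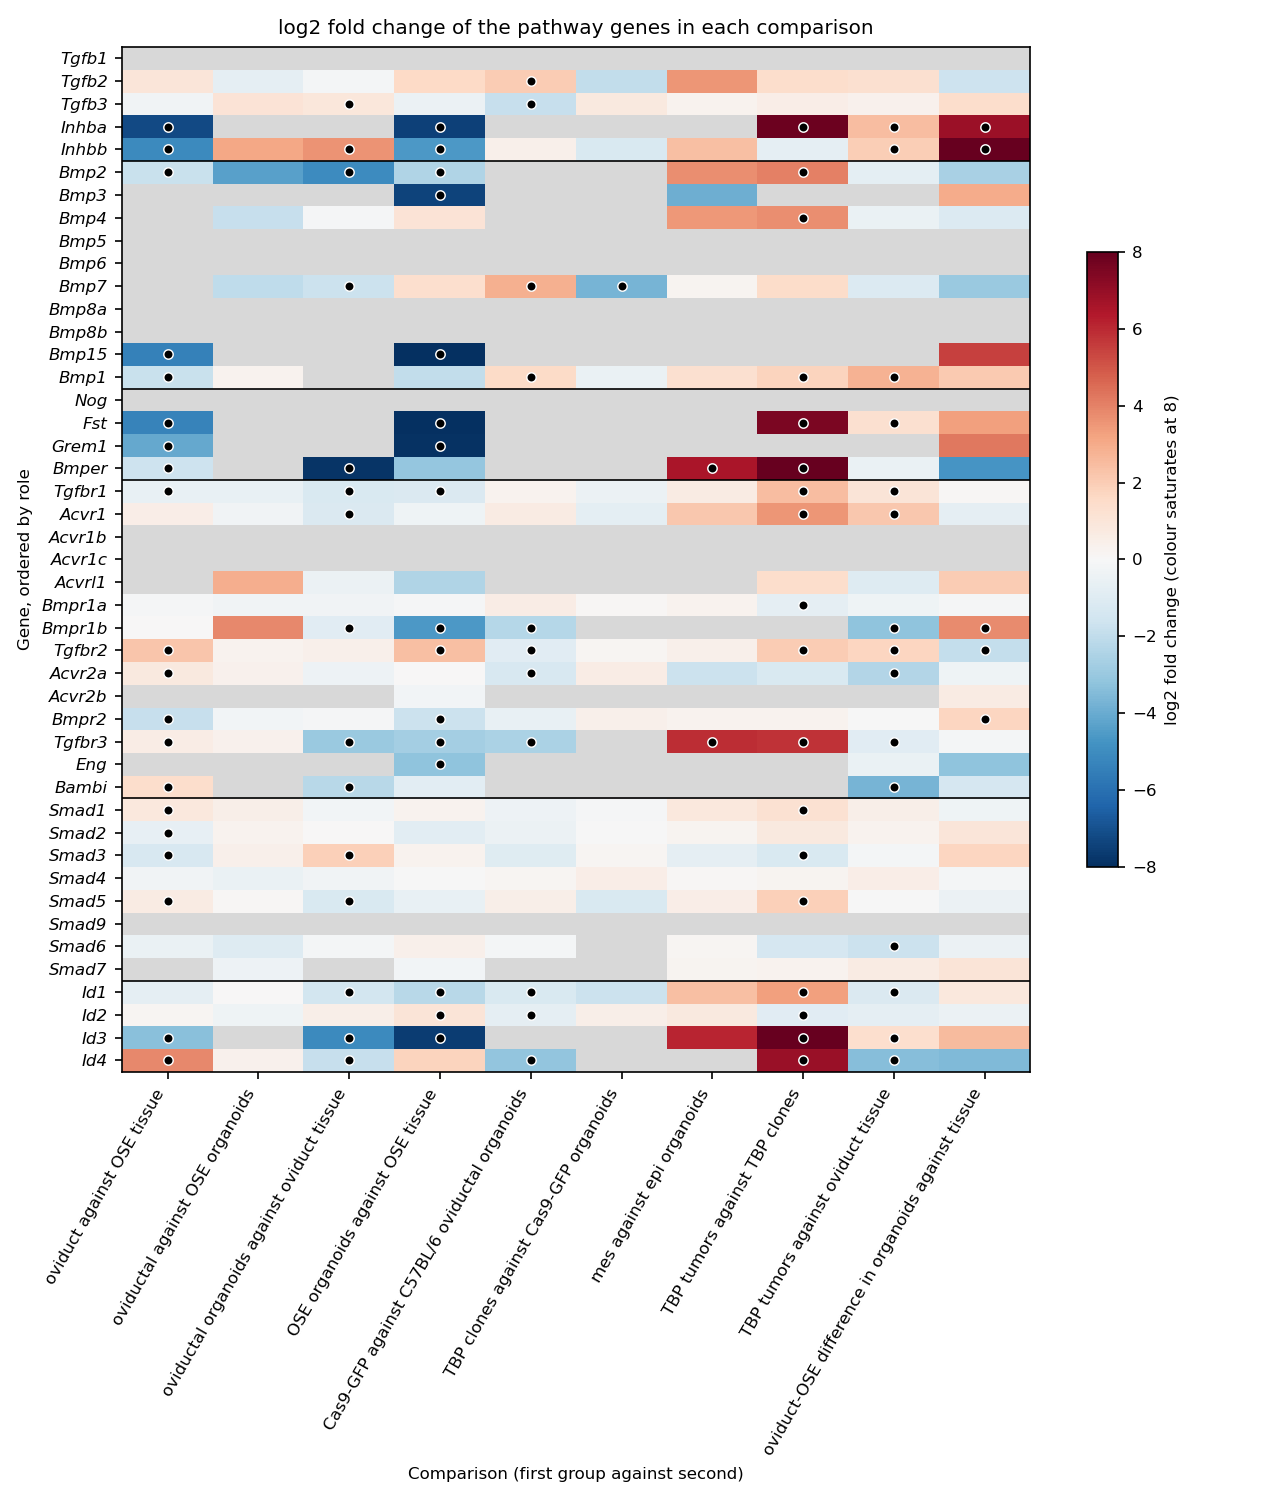
log2 fold change of each gene (rows, ordered by role) in the 10 comparisons (columns), first group against second, with colours saturating at 8, grey for genes not tested and dots for an edgeR adjusted p under 0.05. Calls are dense for both tissues and the tumors and absent between oviductal and OSE organoids.

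Cas9-GFP organoids, the kind of line from which TBP clones were made, were compared with C57BL/6 oviductal organoids, which differ in mouse line and sample record. Of 22 genes tested, 3 were higher and 8 lower, where 26.2% of all genes were called (12.8% higher and 13.4% lower). The median log2 fold change was -0.44, against 0.00 over all genes. The TGF-β ligands differed in opposite directions: *Tgfb2* was at 37.7, 79.9 and 47.1 CPM against 14.6, 7.72 and 16.6 CPM (log2 fold change 2.02 ± 0.37 (SE), edgeR adjusted p = 0.00133), and *Tgfb3* at 14.1, 26.1 and 12.9 CPM against 51.9, 53.2 and 80.3 CPM (log2 fold change -1.85 ± 0.33 (SE), edgeR adjusted p = 0.00121). *Bmp7*, an epithelial BMP, was higher at 32, 10.4 and 19.3 CPM against 5.66, 1.71 and 0.664 CPM (log2 fold change 2.82 ± 0.61 (SE), edgeR adjusted p = 0.00441), as was *Bmp1* (log2 fold change 1.5 ± 0.46 (SE), edgeR adjusted p = 0.0284). All tested *Id* genes were lower, *Id4* with 2.83, 3.48 and 1.07 CPM against 14.6, 12 and 40.5 CPM (log2 fold change -3.18 ± 0.67 (SE), edgeR adjusted p = 0.00384), *Id2* with 185, 132 and 157 CPM (log2 fold change -0.69 ± 0.20 (SE), edgeR adjusted p = 0.0214) and *Id1* with 29.2, 15.6 and 24.6 CPM (log2 fold change -1.22 ± 0.39 (SE), edgeR adjusted p = 0.0356). The 4 receptors that were lower were *Tgfbr3* (log2 fold change -2.55 ± 0.55 (SE), edgeR adjusted p = 0.00432), *Bmpr1b* (log2 fold change -2.30 ± 0.53 (SE), edgeR adjusted p = 0.00666), *Acvr2a*, a type II receptor for activin (log2 fold change -1.27 ± 0.37 (SE), edgeR adjusted p = 0.0222), and *Tgfbr2* (log2 fold change -0.88 ± 0.26 (SE), edgeR adjusted p = 0.0251). Calls lost without 1 library, with the highest edgeR adjusted p, were *Bmp7* (0.0564 without Cas9-GFP oviductal organoids 1), *Bmp1* (0.135 without Cas9-GFP oviductal organoids 1), *Tgfbr2* (0.0866 without oviductal organoids 3), *Acvr2a* (0.0966 without Cas9-GFP oviductal organoids 1), *Id1* (0.142 without oviductal organoids 3) and *Id2* (0.0782 without Cas9-GFP oviductal organoids 2). *Id1* lost its call in 5 of the 6 fits without 1 library, *Bmp1* and *Id2* in 4 each. *Tgfbr2* and *Acvr2a* lost theirs in 3 each and *Bmp7* in 1. The log2 fold change of *Bmp7* was 4.11 without oviductal organoid 1 and that of *Bmpr1b* -3.16 without Cas9-GFP organoid 1. In all, 6 genes were called without Cas9-GFP organoid 1, 7 without oviductal organoid 2 and 6 without oviductal organoid 3.

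Higher and lower in Cas9-GFP organoids were 1 and 1 of 3 other ligands and receptors, 2 and 5 of 9 other extracellular regulators, 1 and 0 of 13 intracellular regulators, 1 and 4 of 7 genes known to respond to TGF-β and 1 and 2 of 4 genes known to respond to BMP. *Ctgf* (log2 fold change -5.00, edgeR adjusted p = 3.60e-04), *Cyr61* (log2 fold change -4.20, edgeR adjusted p = 2.73e-06) and the cell cycle inhibitor *Cdkn2b* (log2 fold change -3.22, edgeR adjusted p = 2.97e-04) were among the lower TGF-β responsive genes, and *Inha* was higher (log2 fold change 2.60, edgeR adjusted p = 8.46e-04). Of the 5 oviduct epithelium markers 3 were lower in Cas9-GFP organoids, with the summed levels given above and no overlap between the groups, and their part in these differences was not tested.

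TBP clones were compared with Cas9-GFP organoids, the line type they came from. Of 18 genes tested, *Bmp7* alone was called, where 0.778% of all genes were (0.415% lower and 0.363% higher). DESeq2 likewise called 1, where 1.13% of all genes were. *Bmp7* was at 0, 2.68 and 0.893 CPM in the 3 clones and 32, 10.4 and 19.3 CPM in Cas9-GFP organoids (log2 fold change -3.74 ± 0.70 (SE), edgeR adjusted p = 0.0281; DESeq2 adjusted p = 0.0187). Its call was lost without TBP clone 3 (log2 fold change -3.05, edgeR adjusted p = 0.0901) or without Cas9-GFP organoid 3 (0.129), and it could not be tested without Cas9-GFP organoid 1, in which it was highest. Without TBP clone 1 its edgeR adjusted p was 0.05 after rounding, still a call, and without TBP clone 2 its log2 fold change was -4.48 and 2 genes were called. *Tgfb2*, at 0, 17.1 and 12.9 CPM against 37.7, 79.9 and 47.1 CPM (log2 fold change -1.96 ± 0.48 (SE), edgeR adjusted p = 0.0932), and *Id1*, at 0, 8.03 and 7.37 CPM against 29.2, 15.6 and 24.6 CPM (log2 fold change -1.69 ± 0.51 (SE), edgeR adjusted p = 0.203), did not overlap between groups and were not called. *Id3* had 1 count over the clones and none over the Cas9-GFP organoids. Outside the 46 genes, none was called among the other ligands and receptors, the extracellular and intracellular regulators and the genes known to respond to BMP. The 82239 counts of TBP clone 1 limit this comparison.

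TBP tumors were compared with TBP clones, the organoids from which such tumors grow. *Id1*, *Id3* and *Id4*, 4 receptors, *Fst*, *Bmper*, *Bmp2* and *Bmp4* were among those higher in the tumors, and *Smad3*, *Id2* and *Bmpr1a* were lower. Of the lower genes, *Smad3* alone kept its call without each library in turn. Of 30 genes tested, 16 were higher and 3 lower, where 31.3% of all genes were called (19.7% higher and 11.6% lower). The median log2 fold change was 1.64 here and 0.16 over all genes, and scaling by RLE in place of TMM moved all values up by a median of 0.135. *Id3* was between 39.1 and 137 CPM (median 48.9) in the 6 TBP tumors and had 1 count over the clones, a ratio of 367 with a 95% counting interval of 65.7 to 14533 (edgeR adjusted p = 1.04e-04). *Id1* was between 38.7 and 97.0 CPM (median 74.9) in the 6 TBP tumors and at 0, 8.03 and 7.37 CPM in the clones (log2 fold change 3.25 ± 0.48 (SE), edgeR adjusted p = 5.54e-04). *Id4* had no count in the clones and was at least 19.4-fold higher over all tumors (edgeR adjusted p = 0.0234), but at least 7.23-fold without TBP tumor 5, which held 77 of its 106 tumor counts and without which it could not be tested. Without TBP clone 3 the ratio of *Id3* became a bound of 37.2 and the bound of *Id4* was 5.91. *Id2*, in contrast, was lower (log2 fold change -0.89 ± 0.30 (SE), edgeR adjusted p = 0.0416), at 204, 194 and 251 CPM in clones and between 79.0 and 181 CPM (median 108) in the 6 TBP tumors.

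Of 5 receptors called, 4 were higher in tumors. *Tgfbr3* was between 33.0 and 104 CPM (median 70.2) in the 6 TBP tumors and at 0, 2.14 and 0.670 CPM in clones (log2 fold change 5.76 ± 0.62 (SE), edgeR adjusted p = 1.04e-04). *Acvr1* was between 182 and 298 CPM (median 186) in the 6 TBP tumors and at 0, 21.4 and 18.5 CPM in clones (log2 fold change 3.51 ± 0.43 (SE), edgeR adjusted p = 1.96e-04). *Tgfbr1* was between 26.3 and 69.4 CPM (median 54.6) in the 6 TBP tumors and at 11.4, 4.82 and 12.5 CPM in clones (log2 fold change 2.47 ± 0.47 (SE), edgeR adjusted p = 0.00227). *Tgfbr2* was between 136 and 359 CPM (median 176) in the 6 TBP tumors and at 68.1, 49.8 and 38.8 CPM in clones (log2 fold change 2.02 ± 0.39 (SE), edgeR adjusted p = 0.00248). Each of the 6 tumors exceeded each clone for these 4 receptors. Without TBP clone 3 the log2 fold change was 5.05 for *Tgfbr3* and 3.18 for *Tgfbr1*, and without TBP clone 2 it was 6.57 for *Tgfbr3*. *Bmpr1a* was the 1 receptor called lower (-0.72), and its call was lost with RLE scaling. *Smad5* was between 26.2 and 50.9 CPM (median 30.8) in the 6 TBP tumors and at 11.4, 9.10 and 8.26 CPM in clones (log2 fold change 1.90 ± 0.36 (SE), edgeR adjusted p = 0.00244).

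Of the secreted proteins, *Bmp1* was between 36.0 and 62.3 CPM (median 49.8) in the 6 TBP tumors and at 22.7, 12.8 and 12.7 CPM in clones (log2 fold change 1.80 ± 0.34 (SE), edgeR adjusted p = 0.00229). Several genes had no count in any clone and are given as bounds on 3 counts over the group: *Fst* was at least 24.9-fold higher in tumors (edgeR adjusted p = 2.33e-04), *Inhba* 29.9-fold (edgeR adjusted p = 0.00351) and *Bmper* 27.7-fold (edgeR adjusted p = 0.00192). These bounds rest on TBP clone 3, the deepest clone library, without which 3 counts equal 1.53 CPM and the bounds are 7.58 for *Fst*, 9.08 for *Inhba* and 8.42 for *Bmper*. The spread of *Fst* over tumors was small, 9.43 to 14.5 CPM, and that of *Inhba* wide, 3.86 to 29.9 CPM. The other calls were *Smad3* (-1.21), *Bmp2* (4.05), *Smad1* (1.19) and *Bmp4* (a ratio of 18.7, counting interval 4.98 to 158). Calls lost without 1 library, with the highest edgeR adjusted p, were *Bmp4* (0.161 without TBP clones 3), *Bmpr1a* (0.225 without TBP clones 2), *Smad1* (0.0961 without TBP clones 3), *Id2* (0.162 without TBP clones 3) and *Id4* (0.107 without TBP clones 3). *Bmpr1a* and *Id2* each lost their call in 7 of the 9 fits without 1 library, and *Smad1* in 1. *Bmp4* lost its call in 1 of the 6 fits that tested it, and *Id4* in 2 of 5. The clones held 4 counts of *Bmp2*, all in TBP clone 2, and its log2 fold change was 2.77 without TBP clone 3. The ratio of *Bmp4* was 5.68 without TBP clone 3 and a bound of 8.85 without TBP clone 2. All 8 fibroblast, 4 of 5 tested smooth muscle, 6 of 7 tested endothelial and 4 of 6 myeloid markers were higher in tumors as well, 2 of 4 tested oviduct epithelium markers were lower, and their part in these differences was not tested.

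Higher and lower in tumors were 2 and 0 of 3 other ligands and receptors, 7 and 0 of 14 other extracellular regulators, 3 and 0 of 14 intracellular regulators, 8 and 1 of 12 genes known to respond to TGF-β and 0 and 1 of 4 genes known to respond to BMP. Among the higher ones were *Tgfbi*, a gene named for its induction by TGF-β (group means of 161 CPM in tumors and 0.327 CPM in clones), *Fn1*, for the matrix protein fibronectin (2227 and 1.62 CPM), and the membrane protein gene *Pmepa1*, a feedback inhibitor of TGF-β signalling (log2 fold change 3.21, edgeR adjusted p = 4.80e-04). The homeobox gene *Dlx5* was the 1 BMP responsive gene called, and was lower (log2 fold change -2.32, edgeR adjusted p = 0.0226).

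**Figure D5:**
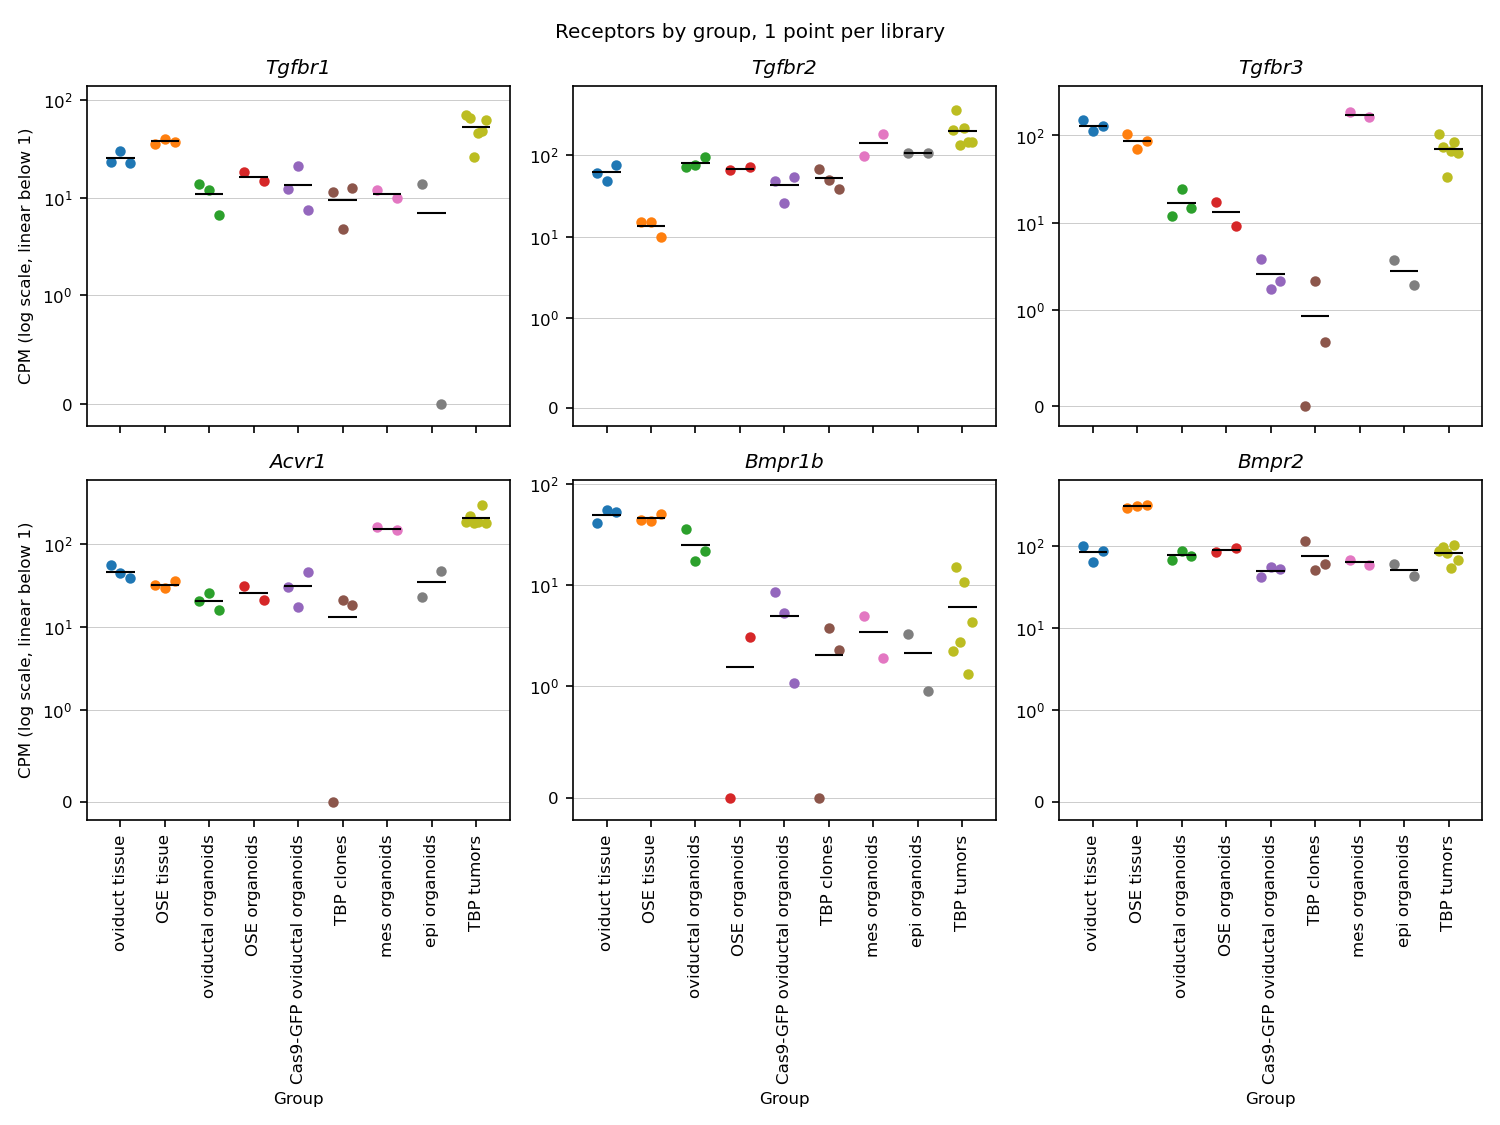
CPM of 6 receptor genes in each group on a log axis that is linear below 1, with 1 point per library and a bar at the group mean. TBP tumors reach the highest values of *Tgfbr2* and *Acvr1*, OSE tissue is lowest for *Tgfbr2* and highest for *Bmpr2*, and the mes organoids stand with the tissues and tumors for *Tgfbr3*.

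TBP tumors were also set against oviduct tissue, the tissue of origin, both extracted with Trizol. *Tgfbr1*, *Tgfbr2* and *Acvr1* were higher in tumors, and *Bambi*, *Bmpr1b*, *Acvr2a*, *Id1* and *Id4* were lower. Of 33 genes tested, 8 were higher and 7 lower, where 45.5% of all genes were called (23.3% higher and 22.2% lower), with a median log2 fold change of -0.05 here and 0.08 over all genes. Of the genes tested here 45.5% were called, a share equal to that of all genes to 3 digits. *Acvr1* was between 182 and 298 CPM (median 186) in the 6 TBP tumors and at 55.5, 45.2 and 38.8 CPM in oviduct (log2 fold change 2.15 ± 0.23 (SE), edgeR adjusted p = 5.71e-05). *Tgfbr2* was between 136 and 359 CPM (median 176) in the 6 TBP tumors and at 60.6, 48.0 and 76.4 CPM in oviduct (log2 fold change 1.69 ± 0.34 (SE), edgeR adjusted p = 0.00245). *Bmp1* was at 6.58, 4.11 and 10 CPM in oviduct, under every tumor (log2 fold change 2.81 ± 0.32 (SE), edgeR adjusted p = 9.43e-05). *Bambi* was between 0.967 and 2.63 CPM (median 1.44) in the 6 TBP tumors and at 14.6, 19.2 and 26.3 CPM in oviduct (log2 fold change -3.72 ± 0.39 (SE), edgeR adjusted p = 5.37e-05). *Bmpr1b* was between 1.29 and 14.9 CPM (median 3.48) in the 6 TBP tumors and at 40.9, 54.8 and 52.6 CPM in oviduct (log2 fold change -3.20 ± 0.61 (SE), edgeR adjusted p = 0.00205). *Acvr2a* was between 3.51 and 13.5 CPM (median 7.01) in the 6 TBP tumors and at 30, 38.4 and 50.1 CPM in oviduct (log2 fold change -2.33 ± 0.40 (SE), edgeR adjusted p = 9.98e-04). Tumors and oviduct did not overlap for any of these 6 genes, which were picked by their small adjusted p.

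The *Id* genes again split. *Id4* (log2 fold change -3.39 ± 0.70 (SE), edgeR adjusted p = 0.00374) and *Id1* (log2 fold change -1.16 ± 0.29 (SE), edgeR adjusted p = 0.00814) were lower in tumors than in oviduct, and *Id3* was higher (log2 fold change 1.33 ± 0.44 (SE), edgeR adjusted p = 0.0309). *Fst* (log2 fold change 1.26 ± 0.36 (SE), edgeR adjusted p = 0.0164), *Inhbb* (log2 fold change 1.97 ± 0.63 (SE), edgeR adjusted p = 0.0287) and *Tgfbr1* (log2 fold change 1.04 ± 0.31 (SE), edgeR adjusted p = 0.0180) were higher and *Tgfbr3* was lower (log2 fold change -0.89 ± 0.28 (SE), edgeR adjusted p = 0.0243). The remaining calls were *Inhba* (2.46) and *Smad6* (-1.73). Calls lost without 1 library, with the highest edgeR adjusted p, were *Inhba* (0.124 without oviduct tissue 1), *Inhbb* (0.112 without oviduct tissue 1), *Fst* (0.0914 without oviduct tissue 1), *Tgfbr1* (0.0748 without oviduct tissue 1), *Tgfbr3* (0.102 without oviduct tissue 1), *Smad6* (0.130 without oviduct tissue 3) and *Id3* (0.122 without oviduct tissue 1). *Smad6* lost its call in 5 of the 8 fits without 1 library that tested it. Of 9 such fits, *Inhba* lost its call in 4, *Inhbb* and *Id3* in 3, *Tgfbr1* and *Tgfbr3* in 2 and *Fst* in 1. Without oviduct tissue 1, the library with the most counts of the 3, 9 genes were called. Without TBP tumor 5 the log2 fold change of *Id4* was -4.48. Higher and lower in tumors were 0 and 2 of 4 other ligands and receptors, 5 and 3 of 15 other extracellular regulators, 8 and 0 of 14 intracellular regulators, 8 and 1 of 12 genes known to respond to TGF-β and 0 and 2 of 4 genes known to respond to BMP. Of 8 fibroblast markers 4 were higher and 1 lower, 5 of 6 myeloid markers were higher, and 5 of 6 smooth muscle and 3 of 5 oviduct epithelium markers were lower. The comparisons of tumors with clones and with oviduct share the 6 tumors.

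Finally, mes and epi organoids, grown from tumors of different histology, were compared. *Bmper* and *Tgfbr3* were higher in mes organoids, and the ligand genes *Inhbb*, *Bmp2* and *Tgfb2* were highest in T3-mes. Of 26 genes tested, 2 were higher and 0 lower, where 1.13% of all genes were called (1.0% higher and 0.123% lower). The median log2 fold change was 0.58 here and 0.02 over all genes. *Bmper* was at 61.4 CPM in T1-mes and 81.1 CPM in T3-mes, against 0.463 CPM in T2-epi and 0.949 CPM in T4-epi. Its pooled ratio was 101, with a 95% counting interval of 34.2 to 492 (edgeR adjusted p = 0.0227), and it was 153 without T4-epi. *Tgfbr3* was at 185 CPM in T1-mes, 162 CPM in T3-mes, 3.70 CPM in T2-epi and 1.90 CPM in T4-epi (log2 fold change 5.92 ± 0.49 (SE), edgeR adjusted p = 0.0227). Both calls were lost without T2-epi or without T4-epi, where the lone epi library is assumed to vary like the mes pair. The log2 fold change was then 6.10 and 7.09 for *Bmper* and 6.42 and 5.52 for *Tgfbr3*. With a block for the sample record shared by a mes and an epi library, 5 genes were called, where 2.30% of all genes were: *Tgfbr3*, *Bmper*, *Id3* (6.19 on the log2 scale, edgeR adjusted p = 0.0125), *Bmp2* (4.12, 0.0242) and *Bmp4* (3.48, 0.0470).

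T3-mes differed from the other 3 libraries of tumor-derived organoids in several of these genes. *Inhbb* was at 1512 CPM there, against 134, 148 and 166 CPM in T1-mes, T2-epi and T4-epi. *Bmp2* was at 362 CPM in T3-mes, followed by T1-mes with 69.1, T4-epi with 31.8 and T2-epi with 1.85 CPM. *Tgfb2*, at 182 CPM in T3-mes, was between 6.48 and 10.4 CPM in the others. Among the *Id* genes, *Id1* was at 209 CPM in T3-mes and between 18.5 and 25.0 CPM elsewhere. *Id3* was highest in T3-mes as well, with 217 CPM, while T1-mes held 14.4, T4-epi 3.32 and T2-epi 0 CPM. *Acvr2a* was lowest in T3-mes, at 1.41 CPM. By contrast *Acvr1* was high in both mes libraries, at 161 and 148 CPM against 22.7 and 47.0 CPM in the epi libraries (log2 fold change 2.15 ± 0.45 (SE), edgeR adjusted p = 0.101; DESeq2 adjusted p = 0.00541). *Fst* (12.1 and 2.36 CPM) and *Grem1* (11.7 and 4.24 CPM) were read in both mes libraries, with 1 count of *Fst* and none of *Grem1* in the epi libraries. DESeq2 called 6 genes, where 4.62% of all genes were: *Bmper*, *Tgfbr3*, *Acvr1*, *Tgfb2*, *Inhba* and *Grem1*, all higher in mes. With all 27 libraries in 1 fit, 11 genes were called higher in mes, where 4.22% of all genes were called.

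Higher and lower in mes organoids were 0 and 0 of 3 other ligands and receptors, 2 and 0 of 12 other extracellular regulators, 0 and 0 of 13 intracellular regulators, 1 and 0 of 8 genes known to respond to TGF-β and 0 and 0 of 4 genes known to respond to BMP. These were the proteoglycans *Dcn* (log2 fold change 6.29, edgeR adjusted p = 0.0309) and *Bgn* (log2 fold change 6.62, edgeR adjusted p = 0.0407) and the collagen *Col1a1* (log2 fold change 6.79, edgeR adjusted p = 0.0292), the last of which is also 1 of the 5 fibroblast markers called higher of 7 tested. Their part in the pathway values of the mes organoids was not tested. *Trp53* in these libraries, at 8.07 to 8.96 CPM in mes and 4.27 to 5.56 CPM in epi organoids, was under all 3 Cas9-GFP organoid libraries.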

How the data were processed

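The authors deposited raw read counts per gene from CEL-Seq2 libraries, a method that tags the 3′ end of transcripts; per the labels and the study's methods, reads were mapped with BWA to GRCm38 and uniquely mapped sense reads were counted without correction by molecular identifiers. A spike-in row (1 count in all) was left out. Groups came from the labels and 27 columns were matched by name. Each comparison was fitted with edgeR 4.0.16 (TMM, filterByExpr, quasi-likelihood, robust) over all genes that passed the filter, in the libraries of that comparison, with Benjamini-Hochberg adjusted p under 0.05 as a call; DESeq2 1.42.0 was an alternative. Standard errors were derived from the F statistic. Scripts were checked on simulated counts. Statements that groups did not overlap describe the named genes, which were mainly picked by their calls. The share of all genes without overlap was not determined. Where a group had no count, bounds use 3 counts over the group, and at 1 to 3 counts exact 95% intervals are given; both cover counting error only.

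Called genes were named in their comparison, and where more than 12 were called the 12 with the smallest adjusted p were given values and the others their log2 fold change; 18 genes were given in every group whether called or not. The members and lists were chosen with earlier results of these data known, and the oocyte marker list was added after the data were seen. The series describes the tissues, wild-type organoids, TBP clones, tumors and tumor-derived lines as independent samples. The tumor-derived lines nevertheless share 1 original clone by the study's account. Nothing says that the 3 Cas9-GFP libraries are independent, or which tumors and clone libraries shared a mouse or clone, and p-values there may measure a technical spread. By their counts, none of 33 replicate pairs agreed within sampling noise (lowest chi-square per gene 2.53). Other settings were RLE scaling, no filter on low counts, all 27 libraries in 1 fit, calls limited to a log2 fold change beyond 1, a block for the sample record (mes and epi organoids) and leaving out each library. Gene positions are of GENCODE vM21. Some results, among them values of genes edited in the clones, are not reported here, while counts of genes cover all members and listed genes.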

Additional observations from a re-analysis of the deposited data

Results flagged for a closer look

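In 6 of 35 genes examined over the 6 TBP tumors, 1 tumor lay apart from the other 5 by Dixon's criterion. About 1 of 20 groups of normally distributed values meets this criterion. The share of all genes that meets it in these tumors was not determined, so that 6 of 35 is not shown to be unusual. TBP tumor 4 had 18.3 CPM of the BMP antagonist gene *Grem1*, against 1.35 to 7.42 CPM in the others, and 137 CPM of *Id3*, against 39.1 to 73.1 CPM. TBP tumor 5 had 298 CPM of the type I receptor gene *Acvr1*, against 182 to 217 CPM, and 24.8 CPM of *Id4*, against 1.68 to 7.02 CPM. TBP tumor 2 had 359 CPM of *Tgfbr2*, against 136 to 215 CPM. TBP tumor 1 had 4.96 CPM of the inhibitory *Smad7*, from 9 counts, against 8.76 to 9.75 CPM.

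The interaction term was called for 13.5% of the 37 genes tested, against 11.4% of all genes. For 5 genes the difference between oviduct and OSE was not the same in organoids as in tissue, by this term of edgeR. Given as the log2 difference of oviductal from OSE organoids minus that of oviduct from OSE tissue, it was 8.24 for *Inhbb*, 6.87 for *Inhba*, 3.77 for *Bmpr1b*, 1.71 for *Bmpr2* and -1.89 for *Tgfbr2*. For *Inhbb* the fitted difference was -5.12 between the tissues and 3.08 between the organoids, and the latter was not called on its own.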

How the results depend on the processing

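Counts of called genes moved by over 1.5 times, or away from 0, under these settings. For some of these fits, and for all that left out a library, the share of all genes called is not given. Such counts, here and above, show how the calls depend on the setting and are not results about the pathway genes. With all 27 libraries in 1 fit, 12 genes were called between the tissues, 1 between oviductal and OSE organoids, 2 between Cas9-GFP and C57BL/6 organoids, 0 between TBP clones and Cas9-GFP organoids and 11 between mes and epi organoids. Without a filter on low counts, 1 gene was called between oviductal and OSE organoids and 2 between TBP clones and Cas9-GFP organoids. DESeq2 called 3 genes between oviductal and OSE organoids and 6 between mes and epi organoids. With the replicate block for the sample record, 5 genes were called between mes and epi organoids; no paired analysis was possible for the other comparisons because their groups came from separate records or shared only a number. The other settings that use every library kept the counts within 1.5 times, between the tissues for example at 25 without a filter, 17 with DESeq2 and 15 with a log2 fold change beyond 1. Leaving out 1 library gave 16 to 23 genes between the tissues, 0 to 7 between oviductal and OSE organoids, 11 to 18 between oviductal organoids and oviduct, 14 to 27 between OSE organoids and OSE tissue, 6 to 12 between Cas9-GFP and C57BL/6 organoids, 0 to 2 between TBP clones and Cas9-GFP organoids, 0 to 11 between mes and epi organoids, 15 to 22 between tumors and clones, 9 to 17 between tumors and oviduct and 5 to 11 for the interaction. The interaction of *Id4*, which was not called, ranged from -4.40 to 0.96 on the log2 scale when 1 library was left out, and was 0.96 without OSE organoid 2, in which *Id4* was at 34.3 CPM against 0.755 CPM in OSE organoid 1. Bounds and pooled ratios of genes with few counts were also recomputed without each library, which was chosen after the data were seen, and those that moved are given beside each result. The cause of these differences was not tested.

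For single genes, 681 of 804 values without 1 library kept their direction and their side of the threshold, 108 lost a call, 14 gained one and 1 reversed. Of 472 values under the other settings, 404 kept both, 50 lost a call, 18 gained one and 0 reversed. The 82239 counts of TBP clone 1 and the pairs of OSE, mes and epi organoids limit what their comparisons can show.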
